A study of Mus musculus with 28 samples.

Results

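The 9 genes described here are 4 interferon regulatory factors (Irf1, Irf5, Irf7 and Irf9), 3 signal transducers and activators of transcription (Stat2, Stat3 and Stat6) and 2 suppressors of cytokine signalling (Socs2 and Socs3). They were taken by gene symbol from a table of 25301 genes, with earlier results of these data known, and each symbol matched 1 row. All 9 were among the 11960 genes with at least 1 FPKM (fragments per kilobase of gene, per a fixed number of mapped fragments) in at least 3 libraries. Irf7, Irf9 and Stat2 changed together: they were high at day 0, low in most PBS libraries at day 1 and high with PBS at day 3. The fall of Stat2 from day 0 to day 1 with PBS did not pass the test. The rise of all 3 genes with PBS from day 1 to day 3 did, but was lost in several other fits. With lactate they were higher than with PBS at day 1, by 2.09 on the log2 scale for Irf7. These day 1 calls rest on a spread shared by all 28 libraries, and with the day 1 libraries alone none of the 9 genes passed. At day 3 Irf7, Irf9 and Stat2 did not pass the test, and the difference for Irf7 was -1.87. The change in the lactate effect between the days passed for Irf7, Irf9, Stat2 and Socs2.

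Cytokine receptors pass their signal through Janus kinases, which phosphorylate STAT proteins that then enter the nucleus. Type I interferons bind the receptor IFNAR and signal through ISGF3, a complex that holds STAT2 and IRF9 and binds interferon-stimulated response elements. IRF7 is itself induced by ISGF3 and drives further interferon production, IRF1 is induced by interferon gamma, and IRF5 acts below Toll-like receptors in macrophages. STAT3 carries the signals of interleukin 6 and interleukin 10, and STAT6 those of interleukin 4 and interleukin 13, which in macrophages accompany alternative activation. SOCS proteins are induced by STATs and feed back on the same pathways, SOCS3 on receptors that use gp130 and SOCS2 on growth hormone signalling.

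The libraries were made from macrophages sorted by flow cytometry from the pancreas of C57BL/6J mice, all wild type, in a recovery model of acute pancreatitis (AP) induced with caerulein, a secretagogue that overstimulates acinar cells. Day 0 of the model (D0) had 5 libraries, and the group labelled NC, whose treatment the labels do not give, had 3. At day 1 there were 6 libraries with lactate (D1 AP+Lac, Lac being read as lactate from the study's title) and 6 with phosphate-buffered saline (D1 AP+PBS), and at day 3 there were 4 of each (D3 AP+Lac and D3 AP+PBS). Age, sex, sort markers and doses are not in the labels, nor is the animal behind each library, so p-values measure only the spread between these libraries, which may be technical.

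The 28 libraries held 33273303 to 41060490 fragments, recovered from the steps of the FPKM values, and Socs2 had only 57 to 1619 of them while the other 8 genes had at least 2738. Macrophage markers were high in every library: Adgre1 had 114 to 434 FPKM, Csf1r 221 to 890, Cd68 189 to 1071 and C1qa 412 to 1556. Markers of other cells were present as well. The 14 acinar markers had a mean log2(FPKM + 1) of 7.08 to 7.70 in NC, 3.35 to 4.13 at D0, 4.59 to 6.08 in D1 AP+Lac, 4.06 to 6.19 in D1 AP+PBS, 4.03 to 6.81 in D3 AP+Lac and 5.97 to 8.66 in D3 AP+PBS. In D3 AP+PBS 2 the acinar level (8.66) exceeded that of the 12 macrophage markers (7.38). The 10 B and plasma cell markers lay at 2.10 to 3.2 at D0 and at 4.13 to 7.35 in the other groups. By correlation over all genes kept, 22 libraries were closest to the rest of their own group and 6 to another. D1 AP+PBS 5 stood out, with r = 0.989 to the D1 AP+Lac mean against 0.961 to the rest of its own group; the other 5 were D1 AP+Lac 2, 3, 4 and 6 and D3 AP+Lac 3. Replicates 5 and 6 of both day 1 groups also had lower mean levels of the 10 fibroblast and stellate cell markers than replicates 1 to 4. That mean log2(FPKM + 1) was 1.51 to 1.64 in replicates 5 and 6 of D1 AP+Lac and 1.45 to 1.66 in those of D1 AP+PBS, but 2.73 to 3.91 in replicates 1 to 4 with lactate and 2.88 to 3.58 in those with PBS. Day 1 results are therefore given also without D1 AP+PBS 5 and for replicates 1 to 4 alone, a split chosen after seeing the data.

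Across the course without lactate, 6 of the 9 genes passed an adjusted p of 0.05 in limma between D0 and NC, where 61.1% of all genes kept were called. Irf5, Irf7, Irf9, Stat2 and Stat3 rose (19.7% of all genes rose) and Socs2 fell (41.4% fell). The groups did not overlap for 8 of the 9, as for 68.3% of all genes. Between D1 AP+PBS and D0, 8 of 9 were called, against 62.9% of all genes. Irf1, Socs2 and Socs3 rose (43.0% of all genes rose), and Irf5, Irf7, Irf9, Stat3 and Stat6 fell (19.8% fell). Most of the genes kept were called in each of these comparisons, so a call for a member is not particular to it.

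Later comparisons changed fewer genes. Between D1 AP+PBS and NC, Socs3 was the only member called, and it rose; 14.5% of all genes were called, with 5.29% higher and 9.18% lower. Between D3 AP+PBS and D1 AP+PBS, 5 of 9 passed, against 34.3% of all genes: Irf7, Irf9, Stat2 and Socs2 rose (21.5% of all genes rose) and Socs3 fell (12.8% fell). Between D3 AP+PBS and NC, 4 of 9 passed, against 21.2% of all genes, and all 4 (Irf1, Irf7, Irf9 and Stat2) rose, as did 10.3% of all genes. The groups did not overlap there for 7 of the 9, Irf1, Irf7, Irf9, Stat2 and Stat3 being higher and Irf5 and Socs3 lower, as for 36.7% of all genes. The median log2 fold change of the 9 was 0.35, -0.34, 0.24, 0.48 and 0.39 in these 5 comparisons in the order given, beside -0.22, 0.19, -0.01, 0.10 and 0.09 over all genes.

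Some course calls depended on scaling, or on the libraries and genes in the fit. After quantile normalization the D0 against NC calls of Irf5 (0.19, adjusted p = 0.26), Stat2 (1.02, adjusted p = 0.058) and Socs2 (-0.42, adjusted p = 0.13) and the D1 AP+PBS against D0 calls of Stat3 (-0.22, adjusted p = 0.11) and Stat6 (-0.11, adjusted p = 0.33) were lost. So were those of Socs3 between D1 AP+PBS and NC (0.63, adjusted p = 0.077) and of Irf1 between D3 AP+PBS and NC (0.82, adjusted p = 0.051), while Irf5 was gained between D1 AP+PBS and NC (-0.46, adjusted p = 0.020). After median-ratio scaling Irf7, Irf9 and Stat2 no longer passed between D3 AP+PBS and D1 AP+PBS (adjusted p = 0.058, 0.15 and 0.078), nor did Irf1, Irf9 and Stat2 between D3 AP+PBS and NC (adjusted p = 0.079, 0.080 and 0.058). Between D3 AP+PBS and D1 AP+PBS, Irf7, Irf9 and Stat2 also failed with the compared groups only (adjusted p = 0.11, 0.12 and 0.088). Without a filter on low values they failed there too (adjusted p = 0.065, 0.068 and 0.071).

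Lactate against PBS at day 1 gave 7 calls among the 9 genes, against 9.72% of all genes. Irf1, Irf7, Irf9, Stat2, Stat3 and Socs2 rose (5.16% of all genes rose) and Socs3 fell (4.56% fell), while Irf5 and Stat6 did not pass. At day 3 none of the 9 passed, where 0.376% of all genes, 45 in number, were called by limma; 4 of the 9 (Irf7, Irf9, Stat2 and Socs2) had an unadjusted p under 0.05, as had 2144 genes. The difference between both lactate effects, day 3 minus day 1, was tested directly and passed for Irf7, Irf9, Stat2 and Socs2, against 10.7% of all genes. All 4 were lower at day 3, as were 5.94% of all genes, while 4.76% were higher. The median of the 9 was 0.55 at day 1 and -0.05 at day 3, beside 0.02 over all genes at each day. D1 AP+Lac and D1 AP+PBS overlapped for all 9 genes; only 0.410% of all genes had no overlap there.

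The day 1 calls rest on the spread shared by all 28 libraries. With the D1 libraries alone in the fit, no member passed, although 7 of 9 had an unadjusted p under 0.05, and none of the 11960 genes passed either (smallest adjusted p = 0.0934; 2282 genes with an unadjusted p under 0.05). Among replicates 1 to 4, 7 of 9 passed in both the shared fit and the fit of these 8 libraries alone. Of the 11960 genes, 3426 passed in that shared fit and 2957 in the fit of the 8 libraries. The groups did not overlap for those 7 members, against 28.8% of all genes. Without D1 AP+PBS 5, 7 of 9 passed, as did 2380 genes over the table. The difference between the lactate effects then passed for 7 of 9 and for 2262 genes over the table. The members added were Irf1 (-1.01, adjusted p = 0.027), Stat3 (-0.54, adjusted p = 0.012) and Socs3 (0.95, adjusted p = 0.015). Without D1 AP+PBS 1 or D1 AP+PBS 4 only Socs2 passed (191 and 210 genes over the table). Without D1 AP+Lac 1 or D1 AP+Lac 3 the count was 4 (643 and 646 genes).

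**Figure D1:**
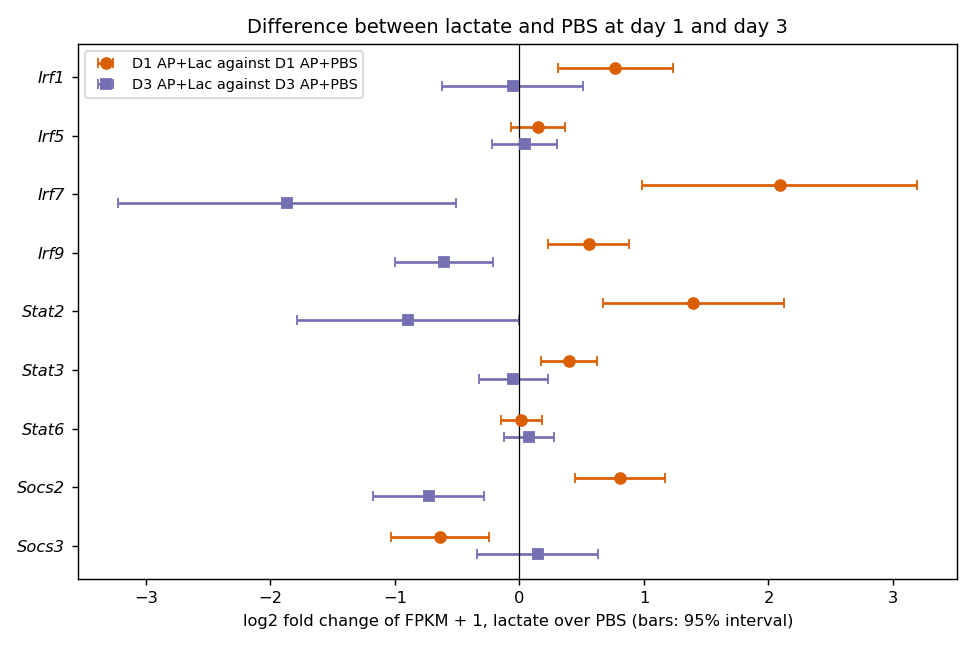
Log2 fold change of FPKM + 1, lactate over PBS, for the 9 genes at day 1 (circles) and day 3 (squares), with 95% intervals from limma. At day 1 the intervals of Irf5 and Stat6 include 0 and the other 7 do not; at day 3 Irf7, Irf9, Stat2 and Socs2 lie below 0, though none passes after adjustment.

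Markers of other cells moved along the same comparisons, and their part in the results was not tested. In bulk RNA, fewer cells of a type and less RNA per cell cannot be told apart. At day 1, 5 of 13 T and NK cell markers were higher with lactate (mean log2 level 3.89 to 5.27, against 3.10 to 4.71 with PBS), as were 5 of 10 dendritic cell markers (3.50 to 3.97, against 2.75 to 3.47), while 4 of 12 macrophage markers were lower (7.69 to 8.91, against 8.39 to 9.01). Of 10 monocyte markers 3 were higher and 1 lower (6.33 to 6.86, against 5.47 to 6.84). Over all genes, 5.16% were higher there and 4.56% lower. At day 3, 1 B and plasma cell marker (Xbp1) and 1 mast cell, basophil and eosinophil marker (Cpa3) were higher with lactate, and no marker of the other lists was called. The level of the mast cell, basophil and eosinophil list was 1.43 to 2.54 with lactate and 0.95 to 1.3 with PBS, without overlap. The T and NK level was 4.40 to 5.06 with lactate and 4.94 to 5.51 with PBS. The dendritic cell level was 3.61 to 4.10 with lactate and 4.11 to 4.65 with PBS, also without overlap. At D0, 9 of 10 monocyte markers were higher than in NC (7.54 to 8.33, against 5.24 to 5.97), and 11 of 13 T and NK, 9 of 10 dendritic and 13 of 14 acinar markers were lower. The shares of all genes were 19.7% higher and 41.4% lower. Between D1 AP+PBS and D0, all 10 monocyte markers were lower (5.47 to 6.84, against 7.54 to 8.33). All 13 T and NK, 9 of 10 dendritic, 8 of 10 B and plasma, 8 of 10 fibroblast and stellate and 11 of 14 acinar markers were higher there. Among all genes, 43.0% were higher and 19.8% lower. Between D3 AP+PBS and D1 AP+PBS, 11 of 13 T and NK and all 10 dendritic cell markers were higher and 11 of 12 macrophage markers lower. For all genes the shares were 21.5% higher and 12.8% lower. No marker of any list was at 0 in every library.

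**Figure D2:**
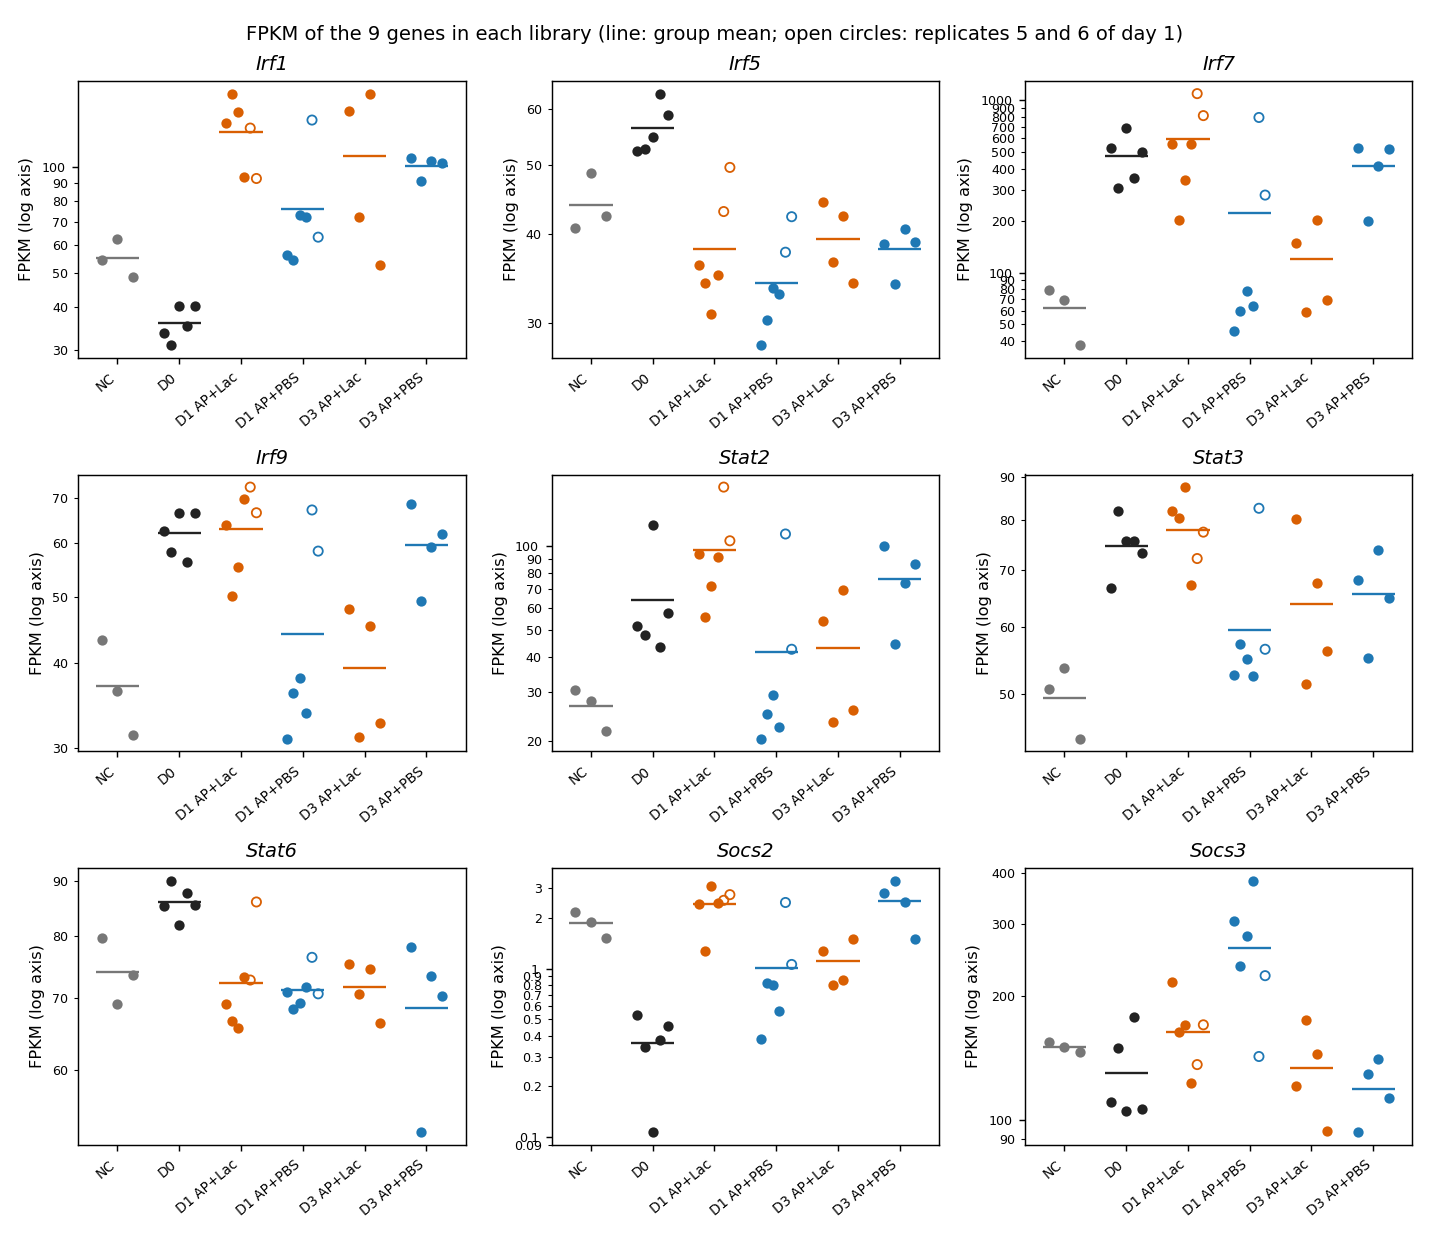
FPKM of each of the 9 genes by library on a log axis, with the group mean as a line; open circles are replicates 5 and 6 of the day 1 groups. Irf7, Irf9 and Stat2 are low in NC and in D1 AP+PBS 1 to 4 and high in D0, D1 AP+Lac and D3 AP+PBS, and the open circle at 795 FPKM of Irf7 in D1 AP+PBS is replicate 5.

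Irf7, the regulator that amplifies type I interferon output, varied most among the 9 on the log2 scale: its SD of log2(FPKM + 1) over the 28 libraries, 1.47, lay at the 99.2 percentile of all genes kept. It had 78.9, 69.2 and 37.8 FPKM in the NC libraries. At D0 it had 529, 309, 692, 356 and 502 FPKM, and the groups did not overlap. The D1 AP+PBS libraries had a lowest value of 46.0, a median of 71.0 and a highest of 795 FPKM, and the D3 AP+PBS libraries had 528, 199, 414 and 519. In D1 AP+PBS, replicates 1 to 4 (46.0 to 78.2 FPKM) lay within the range of NC, replicate 5 (795) above the highest D0 value and replicate 6 (282) just under the lowest.

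On the log2 scale Irf7 rose by 2.93 at D0 against NC (SE 0.68, adjusted p = 0.00071) and fell by 1.91 at D1 AP+PBS against D0 (SE 0.56, adjusted p = 0.0052). It was higher by 1.67 in D3 AP+PBS than in D1 AP+PBS (SE 0.60, adjusted p = 0.034) and by 2.69 than in NC (SE 0.71, adjusted p = 0.0091). The D3 against D1 call was lost when any one of D1 AP+PBS 1, 2, 3 or 4 or D3 AP+PBS 1, 3 or 4 was left out (largest adjusted p = 0.0931), and grew to 2.21 without D1 AP+PBS 5 (adjusted p = 0.0012). The D3 against NC call was lost without NC 3 (adjusted p = 0.0638).

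With lactate at day 1 Irf7 had a lowest value of 203, a median of 560 and a highest of 1093 FPKM, against 46.0, 71.0 and 795 with PBS. It rose by 2.09 (SE 0.54, 95% interval 0.98 to 3.2, adjusted p = 0.017), and by 2.63 without D1 AP+PBS 5 (adjusted p = 0.0002). In replicates 1 to 4 the lactate libraries had 203 to 560 FPKM and the PBS libraries 46.0 to 78.2, without overlap. In replicates 5 and 6 they had 815 to 1093 with lactate and 282 to 795 with PBS. Leaving out D1 AP+PBS 1 or 4 took the adjusted p to 0.0671 and 0.0619.

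At day 3 the lactate libraries had 149, 58.8, 203 and 69.3 FPKM of Irf7, against 528, 199, 414 and 519 with PBS. The groups overlapped only by D3 AP+Lac 3 (203) and D3 AP+PBS 2 (199). The log2 difference was -1.87 (SE 0.66, 95% interval -3.22 to -0.51) with an adjusted p of 0.15. The difference between the lactate effects, -3.96 (SE 0.85, adjusted p = 0.0079), passed and stayed past the threshold whichever of the 20 libraries involved was left out (largest adjusted p = 0.0275). By group mean the order of Irf7 was D1 AP+Lac (596 ± 321 FPKM, SD), D0 (477 ± 152), D3 AP+PBS (415 ± 153), D1 AP+PBS (221 ± 295), D3 AP+Lac (120 ± 68.4) and NC (62.0 ± 21.5), and the ranges of every pair of neighbours in that order overlapped.

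Stat2, a subunit of ISGF3, followed Irf7 with a Pearson r of 0.94 over the 28 libraries on the log2 scale, and also of 0.94 on deviations from the group means. It had 30.3, 27.7 and 21.7 FPKM in NC, 51.8, 47.8, 120, 43.4 and 57.5 at D0, 20.3 to 111 (median 27.0) in D1 AP+PBS and 100, 44.4, 73.5 and 86.5 in D3 AP+PBS. D0 lay above NC without overlap, and D3 AP+PBS likewise. It rose by 1.15 at D0 against NC (SE 0.45, adjusted p = 0.029), a call lost without NC 2, NC 3 or D0 3. The D1 AP+PBS against D0 difference was -0.78 (SE 0.37, adjusted p = 0.069), and it passed without D1 AP+PBS 5 (-1.11, adjusted p = 0.0039) and after median-ratio scaling (-0.996, adjusted p = 0.030). D3 AP+PBS was higher than D1 AP+PBS by 1.07 (SE 0.39, adjusted p = 0.038) and than NC by 1.44 (SE 0.47, adjusted p = 0.031). The first of these was lost without any one of D1 AP+PBS 1 to 4 or D3 AP+PBS 1, 3 or 4 (largest adjusted p = 0.117), the second without any library but D3 AP+PBS 2 (largest adjusted p = 0.125).

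Stat2 in the day 1 lactate libraries had 55.6 to 163 FPKM (median 92.7), against 20.3 to 111 with PBS, a rise of 1.40 (SE 0.35, adjusted p = 0.016). Only D1 AP+PBS 5 among the PBS libraries reached the lactate range. The rise was 1.73 without D1 AP+PBS 5 (adjusted p = 0.0003), and the adjusted p was 0.0616 without D1 AP+PBS 1 and 0.0585 without D1 AP+PBS 4. At day 3 it had 53.8, 23.4, 69.7 and 25.7 FPKM with lactate, against 100, 44.4, 73.5 and 86.5 with PBS, a difference of -0.89 (SE 0.43, adjusted p = 0.28). The lactate effects differed by -2.29 (SE 0.56, adjusted p = 0.012), with an adjusted p of at most 0.0390 when any 1 library was left out.

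Irf9, the DNA-binding subunit of ISGF3, moved less. It had 43.2, 36.4 and 31.4 FPKM in NC, 62.5, 58.3, 66.6, 56.2 and 66.5 at D0, 30.9 to 67.1 (median 37.1) in D1 AP+PBS and 68.4, 49.3, 59.2 and 61.8 in D3 AP+PBS. Among the day 1 PBS libraries replicates 5 (67.1) and 6 (58.4) reached the D0 range and replicates 1 to 4 did not. It rose by 0.74 at D0 (SE 0.20, adjusted p = 0.0026), fell by 0.54 at D1 AP+PBS against D0 (SE 0.16, adjusted p = 0.0065) and was higher by 0.48 in D3 AP+PBS than in D1 AP+PBS (SE 0.18, adjusted p = 0.037) and by 0.68 than in NC (SE 0.21, adjusted p = 0.023). The D3 against D1 call was lost without the same 7 libraries as for Irf7, taken singly, and the D3 against NC call without NC 2, NC 3 or D3 AP+PBS 1.

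In D1 AP+Lac Irf9 had 50.1 to 72.6 FPKM (median 65.2), against 30.9 to 67.1 with PBS, a rise of 0.55 (SE 0.16, adjusted p = 0.027). That call was lost without any one of D1 AP+PBS 1 to 4 or D1 AP+Lac 1, 4 or 5 (largest adjusted p = 0.0949) and was 0.69 without D1 AP+PBS 5 (adjusted p = 0.0013). Median-ratio scaling gave 0.54 (adjusted p = 0.058). At day 3 it had 48.1, 31.1, 45.4 and 32.6 FPKM with lactate, against 68.4, 49.3, 59.2 and 61.8 with PBS. The groups did not overlap, the only member of which this was true at day 3 (7.67% of all genes did not overlap), with a difference of -0.61 (SE 0.19, adjusted p = 0.12). The lactate effects differed by -1.16 (SE 0.25, adjusted p = 0.0079), past the threshold in every fit that left out 1 library.

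The upstream sequence of Stat2 is shown because Stat2 moved with Irf7 and Irf9 and holds an interferon-stimulated response element core in the RefSeq promoter window, and those of Irf1 and Socs3 because these hold a gamma-activated sequence, the palindrome bound by STAT dimers. The window ran from 250 bases before to 50 bases after the annotated start (GRCm38.p6), and 8 of the 9 genes had one, 10 windows in all; Socs2 had no entry. The response element core searched was GAAA and GAAA with 2 bases between them, and the palindromes were TTC and GAA with 3 or with 4 bases between them, on both strands. They occurred in 3.44%, 8.30% and 6.95% of the 32851 windows of all genes, and in 1, 2 and 2 of the 10 windows of these genes. The 1 window with the response element core was that of Stat2, and those of Irf7 and Irf9 held no match of it. Capitals mark the match of the core or of the palindrome with 3 bases in the 250 bases before the start, printed 5′ to 3′ on the gene's strand.
Stat2, chr10:128270248-128270497, plus strand: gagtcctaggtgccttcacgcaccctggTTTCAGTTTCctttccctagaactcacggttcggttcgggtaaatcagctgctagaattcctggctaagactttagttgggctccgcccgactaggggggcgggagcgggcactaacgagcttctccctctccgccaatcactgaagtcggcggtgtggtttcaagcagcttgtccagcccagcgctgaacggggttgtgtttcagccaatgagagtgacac
Irf1, chr11:53769764-53770013, plus strand: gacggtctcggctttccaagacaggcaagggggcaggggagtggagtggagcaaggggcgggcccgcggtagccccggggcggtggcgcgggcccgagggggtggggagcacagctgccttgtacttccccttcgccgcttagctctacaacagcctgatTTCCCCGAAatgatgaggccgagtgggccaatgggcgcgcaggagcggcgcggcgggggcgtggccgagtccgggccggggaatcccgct
Socs3, chr11:117969367-117969616, minus strand: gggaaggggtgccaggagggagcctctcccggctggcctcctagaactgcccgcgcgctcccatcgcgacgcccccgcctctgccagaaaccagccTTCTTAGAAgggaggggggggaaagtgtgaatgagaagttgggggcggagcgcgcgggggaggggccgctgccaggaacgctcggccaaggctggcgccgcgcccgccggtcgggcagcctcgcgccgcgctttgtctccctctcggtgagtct
In Stat2 the match TTTCAGTTTC, which reads GAAACTGAAA on the other strand, lay 222 to 213 bases before the start, and a palindrome with 4 bases between, TTCCCTAGAA, lay at -210 to -201 from the start, without overlap between them. In Irf1 the match TTCCCCGAA lay 90 to 82 bases before the first of its 2 annotated starts, and in Socs3 TTCTTAGAA lay 154 to 146 bases before the start. Irf9 had the remaining match, TTCCTGGGAA, in the first bases after 1 of its 2 annotated starts. These are matches of letters, and binding was not measured.

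Genes known as targets of ISGF3 moved with these 3 genes. Of 26 listed, 22 were in the table and passed the filter. At D0 against NC 14 of 22 rose and none fell (median log2 1.74, beside -0.22 for all genes), among them Bst2 (1.96, adjusted p = 8.8e-05), which tethers budding virus, and the RNA-sensing synthetase Oas1a (2.21, adjusted p = 9.1e-05). At D1 AP+PBS against D0 12 fell and none rose (median -1.18), and at D3 AP+PBS against D1 AP+PBS 13 rose and none fell (median 1.40). Over all genes, the shares that moved the same way in these 3 comparisons were 19.7%, 19.8% and 21.5%.

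At day 1 with lactate all 22 ISGF3 targets tested rose (median 1.87, beside 0.02 for all genes), including the ubiquitin-like modifier Isg15 (2.60, SE 0.62, adjusted p = 0.014), Oas3 (2.09, SE 0.51, adjusted p = 0.015) and the nucleic acid sensor Zbp1 (2.07, SE 0.46, adjusted p = 0.012). At day 3 none was called (median -1.50), and the lactate effects differed for all 22, lower at day 3 (median -3.21). The day 1 calls of this and the other lists rest on the shared spread, as those of the members do. Among the targets whose lactate effects differed, day 3 minus day 1, was Xaf1 (-2.91, adjusted p = 0.0057). Usp18, the protease that removes Isg15 and restrains the receptor, was another (-3.82, adjusted p = 0.0057). Over all genes, 5.16% rose with lactate at day 1 and 5.94% had a lower lactate effect at day 3. The mean log2(FPKM + 1) of the list was 5.35 to 7.67 in D1 AP+Lac and 3.65 to 6.98 in D1 AP+PBS, and 3.84 to 5.67 in D3 AP+Lac and 5.37 to 6.59 in D3 AP+PBS.

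**Figure D3:**
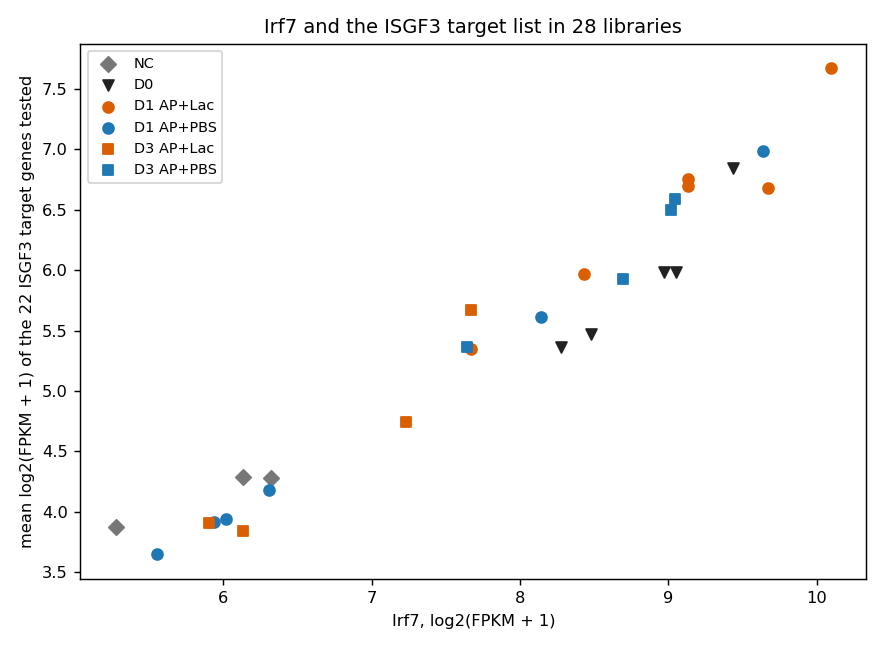
Irf7 in log2(FPKM + 1) against the mean log2(FPKM + 1) of the 22 ISGF3 targets tested, 1 point per library. Colour tells lactate from PBS, and the marker shape tells day 1 from day 3. The points fall along 1 line (Pearson r = 0.98 over 28 libraries). D1 AP+PBS 1 to 4 lie at the low end, D1 AP+PBS 5 near the high end and D1 AP+PBS 6 between them.

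Over the 28 libraries the ISGF3 list had r = 0.98 with Irf7, 0.97 with Stat2 and 0.95 with Irf9, and 0.97, 0.96 and 0.92 on deviations from the group means. These values describe libraries that share preparation and cell make-up. The 3 genes most like each were, for Irf7, Oas3 (r = 0.99), Oasl1 and Isg15 (both 0.98); for Irf9, Irf7 itself (0.98), Oas3 and Ifi206 (both 0.97); and for Stat2, Eif2ak2, Parp14 and Parp10 (all 0.98).

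Transcripts of the ligands, receptors and kinases above these factors were measured as well. Ifnb1 averaged 0.04 ± 0.05 FPKM in D1 AP+Lac and 0.16 ± 0.25 in D1 AP+PBS (SD, n = 6 each), and 0.09 ± 0.16 in D3 AP+Lac and 0.30 ± 0.46 in D3 AP+PBS (n = 4 each), levels near the floor of the table. Of 9 ligand genes that could be tested, of 18 listed, 3 rose with lactate at day 1: Ifng (1.86, SE 0.29, adjusted p = 0.0045), Csf1 (0.90, SE 0.19, adjusted p = 0.010) and Il27 (1.45, SE 0.37, adjusted p = 0.016). Of 17 receptor genes tested, Il2rg rose (0.71, adjusted p = 0.019) and Csf1r and Ifngr1 fell (-0.63 and -0.33, adjusted p = 0.015 and 0.040). Among 4 Janus kinases Jak2 rose (0.79, SE 0.15, adjusted p = 0.0089), and Stat4, a transducer of interleukin 12, rose as well (0.63, SE 0.16, adjusted p = 0.015). With lactate at day 1, 5.16% of all genes rose and 4.56% fell.

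Ifng averaged 10.8 ± 4.9 FPKM in D1 AP+Lac and 2.25 ± 1.7 in D1 AP+PBS (SD, n = 6 each). As given above, 5 of 13 T and NK cell markers were also higher in D1 AP+Lac, and their part in the Ifng difference was not tested. Among 20 sensors and adaptors tested, 5 rose and none fell, beside 5.16% and 4.56% of all genes. Among 7 other interferon regulatory factors only Irf8, which directs monocyte and dendritic cell fate, rose (0.39, SE 0.09, adjusted p = 0.013).

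Irf1, which interferon gamma induces, followed another course. It had 54.4, 62.2 and 48.6 FPKM in NC, 33.6, 31.0, 40.1, 35.2 and 40.2 at D0, 54.3 to 136 (median 67.6) in D1 AP+PBS and 106, 91.5, 104 and 103 in D3 AP+PBS. D0 lay below NC without overlap, unlike Irf7, and D3 AP+PBS above it. The D0 difference of -0.60 (SE 0.28) had an adjusted p of 0.070 and did not pass, but it passed with the compared groups only (-0.60, adjusted p = 0.00079) and after quantile normalization (-0.70, adjusted p = 0.044). Irf1 rose by 0.99 at D1 AP+PBS against D0 (SE 0.24, adjusted p = 0.00089), without overlap, as for 44.2% of all genes. It was higher by 0.87 in D3 AP+PBS than in NC (SE 0.30, adjusted p = 0.039), a call that was lost when any 1 of the 7 libraries was left out (largest adjusted p = 0.145).

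The D1 AP+Lac libraries had Irf1 at 92.9 to 161 FPKM (median 132), against 54.3 to 136 with PBS, and D1 AP+PBS 5 alone among the PBS libraries exceeded the lowest lactate value. It rose by 0.77 (SE 0.22, adjusted p = 0.030) and by 0.95 without D1 AP+PBS 5 (adjusted p = 0.0018). The call was lost without any one of D1 AP+PBS 1, 2, 4 or 6 or D1 AP+Lac 1, 2 or 3 (largest adjusted p = 0.0937). At day 3 the lactate libraries split, with 145 and 162 FPKM in replicates 1 and 3 and 71.9 and 52.7 in replicates 2 and 4, around the narrow PBS range of 91.5 to 106, and the difference was -0.05 (SE 0.27, 95% interval -0.62 to 0.51).

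Among 22 targets of interferon gamma and IRF1, 20 rose with lactate at day 1 and none fell (median 1.53), where 5.16% of all genes rose. Those with the smallest p, whose rises lay under that median, were the peptide transporter Tap1 (0.91, SE 0.18, adjusted p = 0.0089), the immunoproteasome subunits Psmb8 (0.60, adjusted p = 0.0095) and Psmb9 (0.74, adjusted p = 0.0095) and the class I activator Nlrc5 (1.27, adjusted p = 0.0095). At day 3 none was called (median -0.29). The lactate effects differed for 14 of 22, all lower at day 3 (median -1.72), as were 5.94% of all genes. For Irf1 itself the difference of -0.82 (SE 0.35) had an adjusted p of 0.13. At D0 against NC 2 rose and 4 fell, beside 19.7% and 41.4% of all genes. At D3 AP+PBS against D1 AP+PBS 13 rose, as did 21.5% of all genes. The list had r = 0.91 with Irf1 over the 28 libraries, 0.72 with Stat2, 0.53 with Irf7 and 0.49 with Irf9. On deviations from the group means these were 0.85, 0.85, 0.82 and 0.80, so within groups the list did not follow Irf1 in particular. The 3 genes most like Irf1 were the guanylate-binding proteins Gbp2 (0.94) and Gbp3 (0.93) and the immunity-related GTPase Iigp1 (0.93).

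**Figure D4:**
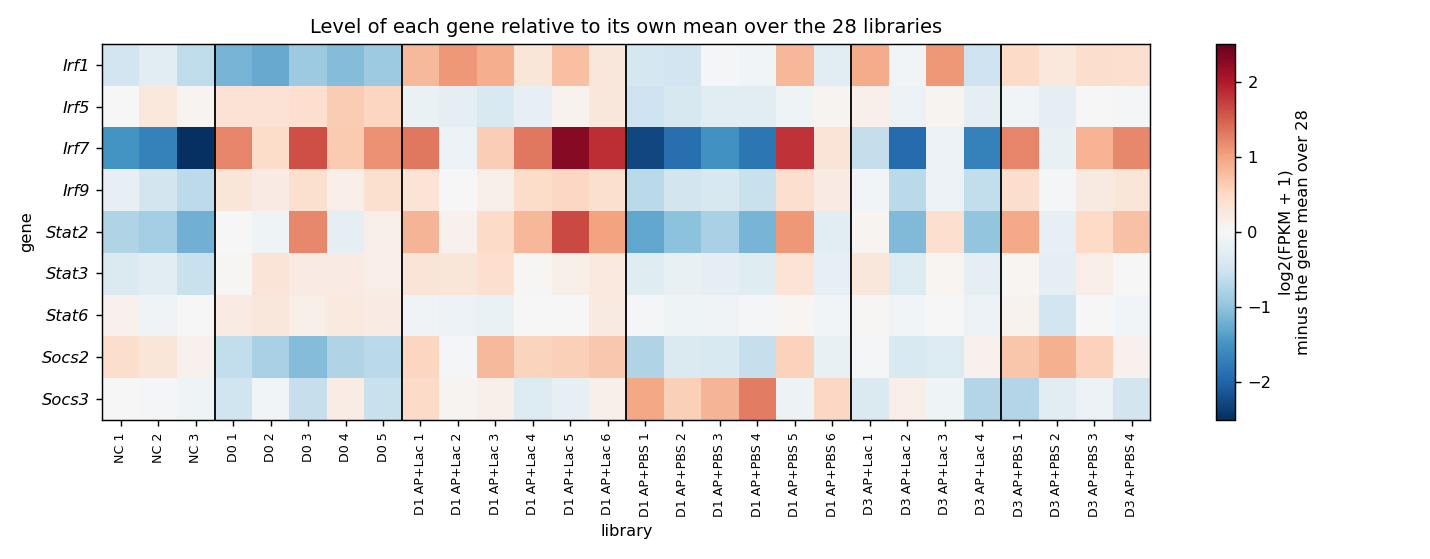
Log2(FPKM + 1) of each gene minus its own mean over the 28 libraries, 1 column per library. The Irf7, Irf9 and Stat2 rows share their high and low libraries, the Irf1 row is lowest in D0, and the Socs3 row is highest in D1 AP+PBS 1 to 4, where Irf7 is low.

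Irf5, which drives inflammatory cytokine genes in macrophages, was highest at D0. It had 40.9, 48.7 and 42.4 FPKM in NC, 52.3 to 63.0 at D0, 27.9 to 42.3 (median 33.3) in D1 AP+PBS and 34.1 to 40.7 in D3 AP+PBS. D0 overlapped with neither NC nor D1 AP+PBS. The rise at D0 against NC was 0.35 (SE 0.13, adjusted p = 0.025) and was lost without NC 1, NC 3 or D0 4, and it fell by 0.71 at D1 AP+PBS against D0 (SE 0.11, adjusted p = 5.6e-06). With lactate it had 30.9 to 49.6 FPKM, against 27.9 to 42.3 with PBS at day 1, and 34.2 to 44.4, against 34.1 to 40.7 with PBS at day 3. The differences were 0.15 (95% interval -0.06 to 0.37) and 0.04 (-0.22 to 0.30). The genes most like Irf5 were Elmo2 (r = 0.89), Tpm3 and Apbb1ip (both 0.87).

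Stat3, the transducer of interleukin 6 and interleukin 10, stayed between 44.3 and 87.5 FPKM in all 28 libraries. It had 50.7, 53.6 and 44.3 FPKM in NC, 66.5, 82.1, 75.6, 75.6 and 73.2 at D0, 52.5 to 82.6 (median 55.7) in D1 AP+PBS and 68.1, 55.1, 73.7 and 64.9 in D3 AP+PBS. D0 lay above NC without overlap. It rose by 0.58 at D0 (SE 0.14, adjusted p = 0.00094) and fell by 0.34 at D1 AP+PBS against D0 (SE 0.12, adjusted p = 0.013). With lactate at day 1 it had 67.2 to 87.5 FPKM (median 79.0), against 52.5 to 82.6 with PBS, and D1 AP+PBS 5 was again the only PBS library inside the lactate range. It rose by 0.40 (SE 0.11, adjusted p = 0.024), and by 0.50 without D1 AP+PBS 5 (adjusted p = 0.0008). The call was lost without D1 AP+PBS 1 or 4 or D1 AP+Lac 1 or 3 (largest adjusted p = 0.0793). At day 3 Stat3 had 80.3, 51.4, 67.5 and 56.2 FPKM with lactate, against 68.1, 55.1, 73.7 and 64.9 with PBS, which overlapped, and the difference was -0.05 (95% interval -0.33 to 0.23). The genes most like Stat3 were Abtb2 (r = 0.88), Sting1 and Etv6 (both 0.86).

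Socs3, which is induced by STAT3 and blocks gp130 receptors, had its highest levels in D1 AP+PBS. It had 155, 151 and 146 FPKM in NC, 110, 150, 105, 178 and 106 at D0, 143 to 383 (median 259) in D1 AP+PBS and 93.3, 130, 141 and 113 in D3 AP+PBS. It rose by 0.98 at D1 AP+PBS against D0 (SE 0.20, adjusted p = 0.00021) and by 0.73 against NC (SE 0.24, adjusted p = 0.037), the second of these lost without any NC library or D1 AP+PBS 1, 3 or 4 (largest adjusted p = 0.133). It fell by 1.09 at D3 AP+PBS against D1 AP+PBS (SE 0.22, adjusted p = 0.00078), without overlap, as for 15.6% of all genes.

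Socs3 in D1 AP+Lac had 123 to 217 FPKM (median 167), against 143 to 383 with PBS, and among the PBS libraries only D1 AP+PBS 5, at 143, lay below the highest lactate value. It fell by 0.64 (SE 0.19, adjusted p = 0.036), and by 0.80 without D1 AP+PBS 5 (adjusted p = 0.0019). The call was lost without any one of D1 AP+PBS 1, 3 or 4 or D1 AP+Lac 2 to 5 (largest adjusted p = 0.123). At day 3 it had 121, 175, 145 and 93.9 FPKM with lactate, against 93.3, 130, 141 and 113 with PBS, a difference of 0.15 (95% interval -0.34 to 0.63). Socs3 and Irf7 had r = -0.45 over the 28 libraries and -0.58 on deviations from the group means. The genes most like Socs3 were Sdf2 (r = 0.85), Fbxl19 (0.83) and Got1 (0.82).

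Of 21 STAT3 targets 10 rose and 3 fell at D0 against NC (median 0.61), where 19.7% of all genes rose and 41.4% fell. The matrix protease inhibitor Timp1 (3.91) and the siderophore-binding protein Lcn2 (5.06) were among those with the smallest p. At D1 AP+PBS against D0 9 fell and 2 rose, beside 19.8% and 43.0% of all genes. Between D1 AP+Lac and D1 AP+PBS 4 rose (Ccnd1, Bcl3, Fgl2 and Il1rn) and 1 fell (median 0.10), beside 5.16% and 4.56% of all genes. At day 3 none was called. Among 15 other suppressors and inhibitors, 3 rose with lactate at day 1: Socs1, which restrains interferon receptors (1.70, SE 0.34, adjusted p = 0.0095), Usp18 (1.88, SE 0.48, adjusted p = 0.017) and Cish, a STAT5 target (0.52, SE 0.17, adjusted p = 0.046).

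Stat6, the transducer of interleukin 4 and interleukin 13, was the steadiest of the 9, with 52.5 to 90.2 FPKM over the 28 libraries and an SD of log2(FPKM + 1) of 0.16, at the 7.38 percentile of all genes kept. It had 81.9 to 90.2 FPKM at D0 and 69.2 to 79.6 in NC, which did not overlap, a difference of 0.22 (SE 0.10) with an adjusted p of 0.065. It passed with the compared groups only (0.22, adjusted p = 0.023) and after median-ratio scaling (0.44, adjusted p = 0.0041). D1 AP+PBS had 68.4 to 76.4 FPKM, also below every D0 value, and fell by 0.27 (SE 0.08, adjusted p = 0.0069). Lactate libraries had 65.7 to 86.1 FPKM at day 1, against 68.4 to 76.4 with PBS, and 66.4 to 75.4 at day 3, against 52.5 to 78.2 with PBS. The differences were 0.02 (95% interval -0.15 to 0.18) and 0.08 (-0.12 to 0.28). The genes most like Stat6 were Naip2 (r = 0.88), Slc29a3 (0.85) and Plekho2 (0.83).

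Of 19 STAT6 targets tested 4 rose and 11 fell at D0 against NC (median -1.14), where 19.7% of all genes rose and 41.4% fell: Retnla fell by 7.63 and the lectin Mgl2 by 7.07 while Chil3 rose by 4.63, and Arg1 averaged 690 ± 235 FPKM at D0 and 6.31 ± 8.92 in NC (SD, n = 5 and 3). The receptor chain Il4ra rose by 2.39 at D0 (SE 0.18). Between D1 AP+Lac and D1 AP+PBS 2 targets rose (Pdcd1lg2 and Flt1) and 2 fell (Klf4 and the mannose receptor Mrc1), beside 5.16% and 4.56% of all genes. The median of the list was -0.27 there, and at day 3 none was called (median -0.36). The STAT6 list had r = -0.20 with Stat6 over the 28 libraries.

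Socs2 was the lowest of the 9, at 0.107 to 3.33 FPKM, and the log2(FPKM + 1) scale understates its changes. It had 2.16, 1.89 and 1.51 FPKM in NC, 0.530, 0.341, 0.107, 0.380 and 0.458 at D0, 0.382 to 2.47 (median 0.808) in D1 AP+PBS and 2.80, 3.33, 2.5 and 1.51 in D3 AP+PBS. Every D0 value lay below every NC value. It fell by 1.07 at D0 (SE 0.22, adjusted p = 0.00023), rose by 0.50 at D1 AP+PBS against D0 (SE 0.18, adjusted p = 0.020) and rose by 0.85 at D3 AP+PBS against D1 AP+PBS (SE 0.20, adjusted p = 0.0023). The D1 rise was lost without D0 3 or D1 AP+PBS 5 (adjusted p = 0.0608 and 0.0632) and took the other sign, -0.02, after quantile normalization (adjusted p = 0.93).

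Socs2 in D1 AP+Lac had 1.28 to 3.08 FPKM (median 2.5), against 0.382 to 2.47 with PBS, a rise of 0.81 (SE 0.18, adjusted p = 0.011) that held whichever library was left out (largest adjusted p = 0.0457). At day 3 it had 1.28, 0.802, 0.852 and 1.51 FPKM with lactate, against 2.80, 3.33, 2.5 and 1.51 with PBS. Only D3 AP+PBS 4 reached the lactate range. The difference was -0.73 (SE 0.21, adjusted p = 0.11), and the lactate effects differed by -1.54 (SE 0.28, adjusted p = 0.0046), the smallest adjusted p of the 9. The genes most like Socs2 were Mreg (r = 0.98), Cacnb3 and Tmem123 (both 0.97). Socs2 is a target of STAT5, and of 8 other STAT5 targets 4 rose and none fell with lactate at day 1 (median 0.34). Over all genes, 5.16% rose there and 4.56% fell.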

How the data were processed

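Gene expression was measured in 28 libraries. The deposited table holds the authors' FPKM per gene; that unit comes from the table's name, since the header states none. Per the labels' protocols, 10 ng of RNA (RNeasy Micro Kit) went into each VAHTS Universal V6 library. The submitters' processing notes list fastp and R 3.2.0. Aligner, counting program and genome build: not given in the sources used here, so reads of overlapping or near-identical genes may have been split.

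Groups follow the titles. FPKM steps corresponded to whole fragments for 100% of values (tolerance 0.01), which gave each library's depth. Among 55 pairs of libraries within groups, chi-square per degree of freedom was at least 24.5, far beyond sampling noise, so all were counted separately. FPKM are not counts. Log2(FPKM + 1) of the 11960 genes reaching 1 FPKM in 3 or more libraries was fitted with limma 3.58.1 (R 4.3.3, statmod 1.5.0) with a mean per group, a spread shared by the 28 libraries, and trended, robust moderation. Two-sided p-values were adjusted (Benjamini-Hochberg) across these genes within each comparison, and 0.05 was the threshold. Fold changes on this scale understate those of low genes. The fit was run on simulated data with independent genes and the same spread per gene in every group. That run cannot test the fit for groups of unequal spread, such as those at day 1. List levels are means of log2(FPKM + 1). Likeness is Pearson's r among genes averaging at least 5 FPKM. Other steps used Python 3.11.15, numpy 2.4.6, pandas 2.3.3 and matplotlib 3.10.9.

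The members and lists were chosen with earlier results of these data known. The genes named are all members, the 3 most like each, and from each list up to 4 with the smallest p; Il4ra among receptors, the levels of Arg1, Ifnb1 and Ifng, and the markers Xbp1 and Cpa3 were added after their values were seen. Promoter windows are RefSeq's (GRCm38.p6). Of 178 listed pathway genes, 6 without a value were not analysed here, and others, 9 of the 18 ligands among them, fell under the filter. The list of other STATs is not reported here in full. Alternatives covered the pseudocount (0.1), the filter (none, or a mean of 5 FPKM), quantile and median-ratio scaling, fits of the compared groups, a replicate block, plain moderation, and leaving out each library; those on day 1 replicates 5 and 6 were added after seeing the data.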

Additional observations from a re-analysis of the deposited data

Results flagged for a closer look

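A library far from the rest of its group was looked for in 45 pairs of gene and group with 4 to 6 libraries, by the gap to the nearest library over the range of the group (Dixon's 95% value). Chance marks about 1 in 20 such groups, and 7 were marked. In D1 AP+PBS replicate 5 was the highest of 6 for Irf1 (136 FPKM), Irf7 (795 FPKM), Stat2 (111 FPKM), Stat3 (82.6 FPKM) and Socs2 (2.47 FPKM), so 5 of the 7 come from this 1 library. In D0 replicate 3 was the highest of 5 for Stat2 (120 FPKM). In D1 AP+Lac replicate 6 was the highest of 6 for Stat6 (86.1 FPKM).

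The effect of lactate differed between day 3 and day 1 by the interaction term of limma for 4 genes. Day 3 minus day 1 was -3.96 for Irf7, -1.16 for Irf9, -2.29 for Stat2 and -1.54 for Socs2 on the log2 scale.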

How the results depend on the processing

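Called members kept their direction under each alternative run, except Socs2 in D1 AP+PBS against D0 under quantile normalization (-0.023, adjusted p = 0.93). The number of the 9 genes called moved by more than 1.5 times as follows. Without a filter on low values it was 0 (1 in the report) for D1 AP+PBS against NC, 2 (5) for D3 AP+PBS against D1 AP+PBS, 2 (4) for D3 AP+PBS against NC and 3 (7) for lactate at day 1. Quantile normalization gave 5 (8) for D1 AP+PBS against D0. Median-ratio scaling gave 2 (5) for D3 AP+PBS against D1 AP+PBS and 1 (4) for D3 AP+PBS against NC. Both scalings moved the median of all genes to within 0.06 of 0 where it had been -0.22 (D0 against NC), 0.19 (D1 AP+PBS against D0) and 0.10 (D3 AP+PBS against D1 AP+PBS). The genes called higher and lower were 2361 and 4948 for D0 against NC, but 3558 and 2755 after quantile normalization and 3597 and 3858 after median-ratio scaling. For D1 AP+PBS against D0 they were 5147 and 2374, but 2835 and 3666, and 3918 and 3808. For D3 AP+PBS against D1 AP+PBS they were 2569 and 1534, but 1771 and 2185, and 1862 and 2020. For D3 AP+PBS against NC they were 1236 and 1299, but 809 and 1593 after median-ratio scaling. Without a filter, which leaves more genes to test, D1 AP+PBS against NC had 507 genes higher and 1563 lower. D3 AP+PBS against D1 AP+PBS had 2872 and 1374 there, and D3 AP+PBS against NC 1136 and 1536. With the compared groups only, the members called were 0 for D1 AP+PBS against NC, 2 for D3 AP+PBS against D1 AP+PBS and 0 for lactate at day 1. With a term for replicates 5 and 6 in that fit lactate at day 1 gave 4, and day 1 replicates 1 to 4 gave 3 for D1 AP+PBS against NC and 7 (4) for the difference of lactate effects. The causes were not tested. Leaving out 1 library gave 0 to 3, 2 to 6, 0 to 4, 1 to 7 and 4 to 7 members called for D1 AP+PBS against NC, D3 AP+PBS against D1 AP+PBS, D3 AP+PBS against NC, lactate at day 1 and the difference of lactate effects. Genes called over the table were 937 to 1933, 2996 to 4660, 1188 to 2335, 191 to 2380 and 622 to 2262 in the same order.

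Genes called over the table for lactate at day 1 were 1162, but 616 without a filter, 0 with the compared groups only, 449 with the added term, 3426 for replicates 1 to 4 and 191 to 2380 with 1 library left out. For lactate at day 3 they were 45, but 11 with a pseudocount of 0.1, 104 without a filter, 16 with a mean of at least 5 FPKM, 213 and 77 after quantile and median-ratio scaling, 8 with the compared groups only, 122 with a replicate block and 0 to 163 with 1 library left out. For the difference of lactate effects they were 1280, but 546 with the compared groups only and 3408 for replicates 1 to 4. A mean of at least 5 FPKM, which tests fewer genes and drops Socs2, gave 4454 (7309), 4641 (7521), 980 (1731), 2720 (4103) and 1626 (2535) for the course comparisons in the order of the report.

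Same-numbered libraries did not deviate together throughout (28 correlations from -0.53 to 0.61, 11 over 0.1), and the main fit did not take the numbers as pairs. Between D1 AP+Lac and D1 AP+PBS the correlations were -0.34, 0.49, 0.61, -0.21, 0.35 and 0.53 for replicates 1 to 6. Shared structure by replicate number at day 1 is therefore not excluded. With a replicate block 3 members were called for D1 AP+PBS against NC, Irf5 (-0.49, adjusted p = 0.0027) and Socs2 (-0.67, adjusted p = 0.044) being added. Over all genes the main fit called 633 higher and 1098 lower there, and the fit with the block called 669 and 943. Stat2 was added for D1 AP+PBS against D0 (-0.83, adjusted p = 0.024) and Irf5 for D3 AP+PBS against D1 AP+PBS (0.28, adjusted p = 0.030), and no other member call changed. Socs2, at 57 fragments in its lowest library, is the member whose depth limits precision most.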
